A study of Rattus norvegicus with 4 samples.

Results

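The zona pellucida glycoprotein genes of the rat, Zp1, Zp2, Zp3 and Zp4, were examined in whole ovaries cultured with or without GDNF (glial cell line-derived neurotrophic factor, which signals through the receptor Ret). They were taken by gene symbol: a probe set was included when its platform symbol was exactly one of these 4 names. Of the 4 genes, 3 had a probe set, and each of these had 1. Zp4 had none and has no expression value here. The array carried probe sets with a single symbol for 14217 genes in all, and 10608 genes passed the filter on low signal. The 3 zona probe sets were among them.

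The GDNF group was ovaries of 4-day-old rat pups cultured for 2 days with GDNF, and the control group was ovaries of the same age cultured for 2 days with no factor added. The dose of GDNF, the rat strain and the spacing of replicates over litters or culture days are not given in the sources used here. All ovaries of both groups were kept in a medium with insulin, transferrin, ascorbic acid, albumin and antibiotics. Each sample was RNA from 6 to 10 pooled ovaries on 1 Affymetrix array, with 2 GDNF and 2 control samples, so p-values reflect only how far these samples differ, which may be technical. The treatment text of the GDNF samples repeats the wording of the controls, and their group was taken from their titles, with which their descriptions agree.

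The zona pellucida is the extracellular coat that the growing oocyte secretes around itself. ZP2 and ZP3 assemble into long filaments and ZP1 joins the filaments to each other. All of these proteins share a ZP module, the domain through which they polymerise. In the mouse their transcripts are made only in oocytes and accumulate as an oocyte leaves the resting pool and grows, and the transcription factor Figla is needed for their expression, acting with E proteins at E-boxes close to the start sites. The mouse zona lacks ZP4, whose gene is a pseudogene there, while the rat has a ZP4 protein. Around the age studied, rat ovaries hold mainly primordial follicles, in which a resting oocyte is enclosed by flattened somatic cells.

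The stretches before the start sites are shown because an E-box there is the element through which zona genes are known to be expressed together. In RefSeq's promoter table for GRCr8, Zp1, Zp3 and Zp4 were matched by symbol. The 220 bases ending just before the annotated start lie at chr1:216992149-216992368 for Zp1, at chr12:26334127-26334346 for Zp3 and at chr17:63703701-63703920 for Zp4, all on the minus strand. Zp1 as annotated spans 216984343 to 216993882 on the same chromosome, so its stretch lies inside the full extent of the gene, of which other transcripts start farther upstream. They are printed 5′ to 3′ with every E-box (CANNTG, which reads the same on both strands) in capitals.
Zp1: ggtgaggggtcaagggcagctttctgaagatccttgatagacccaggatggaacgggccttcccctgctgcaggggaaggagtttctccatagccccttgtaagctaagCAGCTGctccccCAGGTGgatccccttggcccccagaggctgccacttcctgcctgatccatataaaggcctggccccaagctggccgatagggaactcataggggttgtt
Zp3: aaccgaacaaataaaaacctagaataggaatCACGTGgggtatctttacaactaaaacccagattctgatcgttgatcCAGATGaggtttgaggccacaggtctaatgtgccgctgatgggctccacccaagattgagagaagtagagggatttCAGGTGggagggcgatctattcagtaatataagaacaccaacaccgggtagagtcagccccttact
Zp4: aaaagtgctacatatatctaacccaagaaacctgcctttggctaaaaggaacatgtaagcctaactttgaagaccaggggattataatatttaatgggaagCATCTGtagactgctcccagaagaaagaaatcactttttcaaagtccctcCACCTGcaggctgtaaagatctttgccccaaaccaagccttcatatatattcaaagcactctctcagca

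Each of the 3 stretches held an E-box of the form CAGGTG, or CACCTG when read on the other strand. It began 99 bases before the start site in Zp1, 66 bases before it in Zp3 and 69 bases before it in Zp4, where it runs in the opposite orientation. This form was singled out after the sequences were seen. An E-box of any form was present in the 250 bases before 65.5% of the 33469 start sites in the table, and the CAGGTG form, counted on both strands, before 15.9% of them. Of the 36 oocyte genes listed for comparison, 25 were in that table, and 9 of these (36%) held the CAGGTG form. Other E-boxes lay 238 and 111 bases before the start in Zp1, 189 and 142 bases in Zp3, and 119 bases in Zp4. A match is a run of letters, and binding was not measured.

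**Figure D1:**
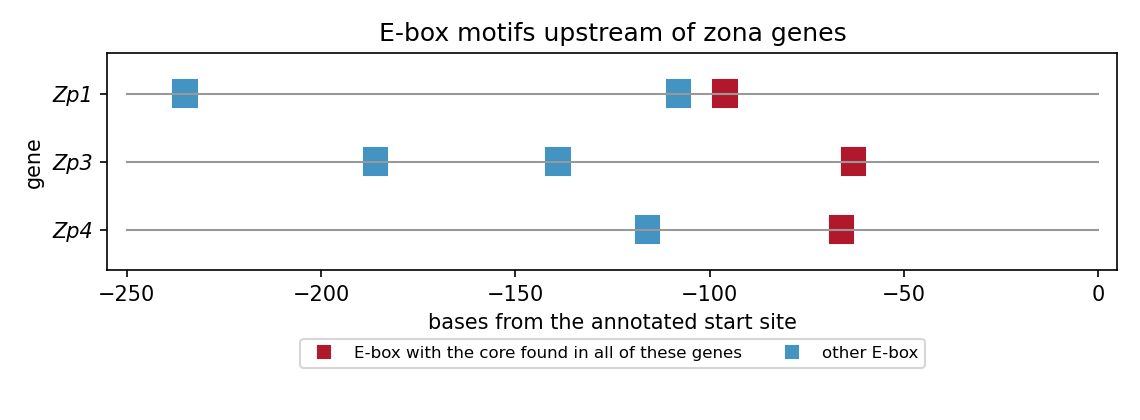
Position of E-boxes in the 250 bases before the annotated start sites of Zp1, Zp3 and Zp4 (horizontal axis, bases from the start site; 1 row per gene). The form shared by the 3 genes lies 99, 66 and 69 bases before the start, nearer to it than the other E-boxes of the same gene.

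GDNF-treated ovaries had the higher mean signal for all 3 zona genes on the array. Zp1 was 1.53-fold, Zp3 1.31-fold and Zp2 1.26-fold higher, and none of the 3 passed the adjusted threshold. Values are MAS5 signals, linear array intensities that the authors scaled to the same trimmed mean on each array. Log2 fold changes are of log2(signal + 1), GDNF minus control, a scale on which dim genes appear to change less than they do. Precision is limited by having 2 arrays a group, for which a two-sided exact permutation test cannot give a p under 0.333.

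Zp1, which links the zona filaments, had a signal of 175.0 and 186.3 in GDNF replicates 1 and 2, against 97.2 and 143.1 in control replicates 1 and 2. The GDNF samples lay close together and both were above both controls, which were far apart. Group means were 181 ± 7.99 in GDNF and 120 ± 32.5 in control ovaries (SD, n = 2 each), and the log2 fold change was 0.61 (SE 0.20, 95% interval 0.14 to 1.08). Its limma adjusted p was 0.999 (unadjusted p = 0.0187). Control replicate 1 carried much of the difference, which was 0.33 without that sample.

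Zp3, which partners ZP2 in the filaments, had 2106 and 2732 in GDNF replicates 1 and 2, against 1665 and 2014 in control replicates 1 and 2. Both GDNF samples were above both controls, but GDNF replicate 1 exceeded control replicate 2 by little. Means were 2419 ± 443 in GDNF and 1840 ± 247 in control ovaries (SD, n = 2 each). The log2 fold change was 0.39 (SE 0.15, 95% interval 0.03 to 0.75; limma adjusted p = 0.999, unadjusted p = 0.0368). It was 0.20 without GDNF replicate 2 and 0.25 without control replicate 1.

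Zp2, the zona protein that the oocyte protease ovastacin cleaves after fertilisation, had 1803 and 2437 in GDNF replicates 1 and 2, against 1478 and 1872 in control replicates 1 and 2. The groups overlapped, since GDNF replicate 1 was below control replicate 2. Means were 2120 ± 448 in GDNF and 1675 ± 279 in control ovaries (SD, n = 2 each). The log2 fold change was 0.33 (SE 0.17), and its 95% interval of -0.07 to 0.74 included 0 (limma adjusted p = 0.999, unadjusted p = 0.0921). It was 0.12 without GDNF replicate 2, 0.16 without control replicate 1, 0.55 without GDNF replicate 1 and 0.50 without control replicate 2.

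No zona gene passed an adjusted p of 0.05, and neither did any of the 18625 probe sets tested with limma (0%), of which 508 had an unadjusted p under 0.05. Of the 3 zona probe sets, 2 were higher in GDNF with an unadjusted p under 0.05, as were 1.06% of all probe sets tested. The same 2 had groups that did not overlap with GDNF higher, against 13.4% of all probe sets tested. The 3 genes are expressed in the same cells and were measured on the same 4 arrays, so they are not independent of each other. In whole ovaries, more oocytes and more transcript in each oocyte cannot be told apart.

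**Figure D2:**
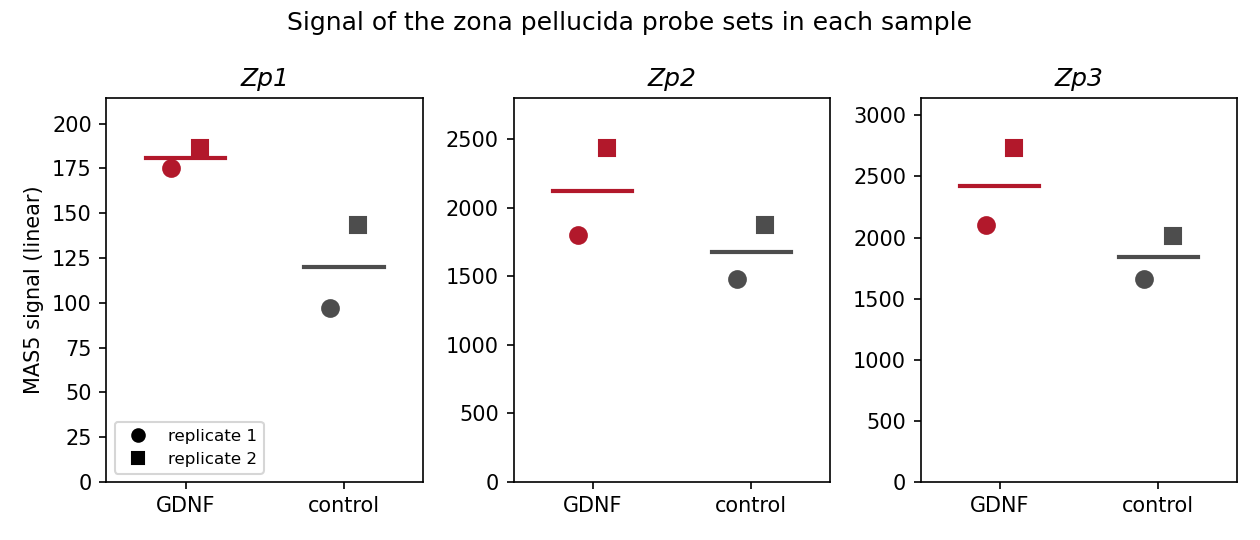
MAS5 signal (vertical axis, linear, from 0) of Zp1, Zp2 and Zp3 in each GDNF and control sample; circles are replicate 1, squares replicate 2 and bars the mean of 2 samples. GDNF replicate 1 of Zp2, at 1803, lies below control replicate 2, at 1872, while the groups of Zp1 and Zp3 do not overlap.

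In each group the sample titled replicate 2 had the higher signal of all 3 zona genes. On the log2 scale it was above replicate 1 by 0.43 in GDNF and 0.34 in control ovaries for Zp2, by 0.38 in GDNF and 0.27 in control ovaries for Zp3, and by 0.09 in GDNF and 0.55 in control ovaries for Zp1. For Zp2 these differences within a group were at least as large as the difference between the groups. What the number stands for is not stated in the labels. Between samples of the same number, GDNF exceeded control by 0.29 and 0.38 for Zp2, by 0.34 and 0.44 for Zp3 and by 0.84 and 0.38 for Zp1 in replicates 1 and 2. Within a number the direction was therefore the same for the 3 genes. For Zp1 and Zp3 any pairing would give this, since both GDNF samples were above both controls. Only for Zp2 could the direction have differed.

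Zp2 and Zp3 varied in parallel over the samples. The log2 ratio of Zp2 to Zp3, taken within each array and centred on its mean, was -0.06 and 0.0016 in GDNF replicates 1 and 2, and -0.0051 and 0.06 in control replicates 1 and 2. It spanned 0.12 over the 4 samples, against 0.72 for Zp2 and 0.71 for Zp3 by themselves. The ratio of Zp1 to Zp3 was less constant, with 0.25 and -0.03 in GDNF replicates 1 and 2 and -0.25 and 0.03 in control replicates 1 and 2. Zp1 was thus high relative to Zp3 in GDNF replicate 1 and low in control replicate 1. The groups overlapped, and the difference in this ratio of 0.22 between GDNF and control had an exact permutation p of 0.667.

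The other oocyte genes were used to ask whether the zona genes differed between groups beyond them. Of the 36 oocyte genes listed, 13 were named alone on a probe set and 12 were tested. Of these, means in GDNF ovaries were higher for 10 and lower for 2, 4 were higher with no overlap, and none was lower with no overlap. Of all 10608 genes tested, 48.6% had a higher mean in GDNF, 13.8% were higher with no overlap and 18.1% lower with no overlap. The median log2 fold change of the 12 genes was 0.34, with a median of -0.0058 for all genes tested, and 0.09 without control replicate 1 or 0.13 without GDNF replicate 2. The list was put together with the earlier results of these data known, and it includes genes such as Uchl1, Elavl2 and Bmp6 that other cells also express.

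Gdf9, which the oocyte releases to act on granulosa cells, had 902.2 and 1001 in GDNF replicates 1 and 2, against 545 and 706.1 in control replicates 1 and 2. Its groups did not overlap (log2 fold change 0.61, SE 0.14, limma adjusted p = 0.999), and it was 0.43 without control replicate 1. Bmp15, its partner in the same family, had 111 and 69.9 in GDNF and 55.1 and 64.1 in control samples (log2 fold change 0.56, SE 0.25), with GDNF replicate 1 far above the rest and 0.23 without it. Kit, the receptor through which Kit ligand acts on the oocyte, had 80.0 and 42.3 in GDNF and 24.5 and 47.4 in control samples, with overlap (0.75, SE 0.40, and 0.29 without control replicate 1).

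Ybx2, an RNA-binding protein of germ cells that stabilises stored maternal transcripts in the mouse, had 108.1 and 148.6 in GDNF and 74.1 and 121.1 in control samples (log2 fold change 0.42, SE 0.27), and its groups overlapped. It was 0.07 without control replicate 1. Of the genes with the lowest values, Sycp3, which encodes an axial element protein of meiotic chromosomes, had a log2 fold change of -0.11 (SE 0.17). Bmp6, a growth factor also made by somatic cells, had -0.0026 (SE 0.14), and the RNA-binding protein Rbpms2 had 0.10 (SE 0.15). Sycp3 was 0.09 without GDNF replicate 1 and 0.05 without control replicate 2, Rbpms2 was -0.06 without GDNF replicate 2 and -0.05 without control replicate 1, and Bmp6 lay between -0.10 and 0.09 in the fits that left out 1 sample and was 0.01 after median centring.

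**Figure D3:**
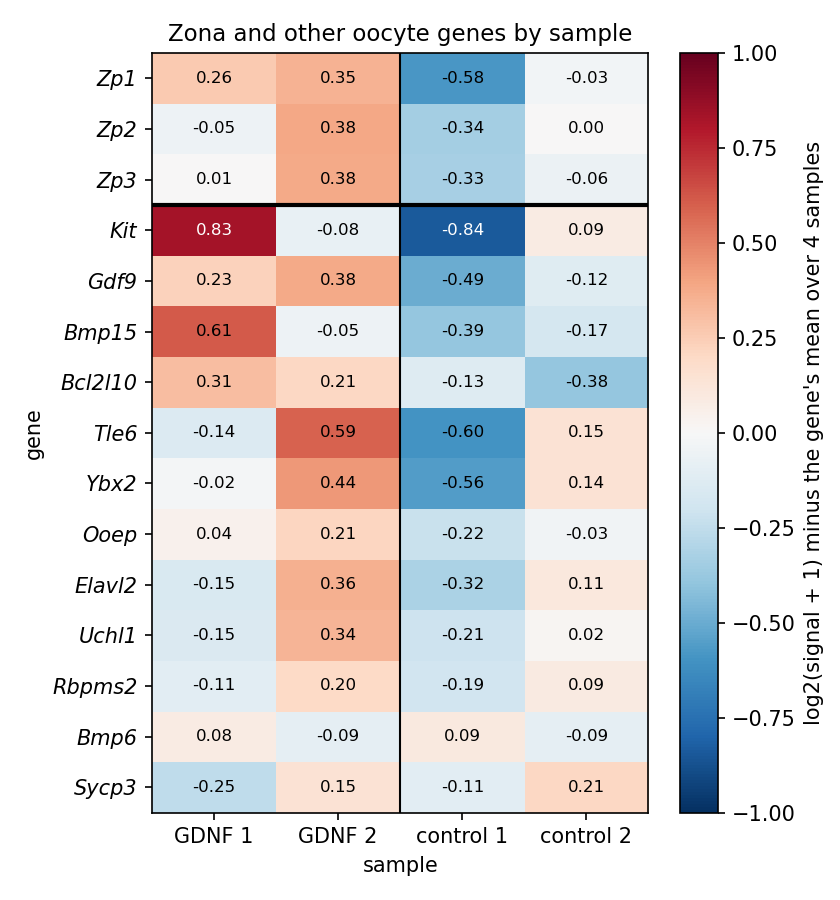
Each gene's log2(signal + 1) minus its mean over the 4 samples (colour and printed value; columns are samples, rows genes), for the zona genes above the line and 12 other oocyte genes below it. Control replicate 1 is the lowest sample of Zp1, Zp2 and Zp3, at -0.58, -0.34 and -0.33, and GDNF replicate 2 the highest, at 0.35, 0.38 and 0.38.

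Relative to the mean of those 12 oocyte genes on the same array, Zp2 and Zp3 differed little between groups. Zp2 had -0.16 and 0.16 in GDNF replicates 1 and 2, against -0.0076 and 0.0035 in control replicates 1 and 2, as centred log2 ratios. The difference between GDNF and control was 0.0041 (exact permutation p = 1). For Zp3 the ratio was -0.10 and 0.16 in GDNF and -0.0024 and -0.06 in control samples, a difference of 0.06 (exact permutation p = 1). It turned to -0.07 without GDNF replicate 2, and that of Zp2 to -0.16. For both genes the GDNF samples were farther apart than the group means.

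For Zp1 the same ratio was 0.15 and 0.13 in GDNF and -0.25 and -0.03 in control samples. The groups did not overlap, and the difference was 0.28 (exact permutation p = 0.333, the smallest possible), or 0.17 without control replicate 1. Relative to Gdf9 alone, Zp1 differed between GDNF and control by -0.0041, with a range of 0.18 over the 4 samples. Relative to Gdf9, Zp2 differed by -0.28 and Zp3 by -0.22, both lower in GDNF with no overlap (exact permutation p = 0.333 for each). Relative to Ooep, a subunit of the maternal complex beneath the oocyte membrane, Zp1 differed by 0.35 (exact permutation p = 0.333), Zp2 by 0.08 and Zp3 by 0.13. In all, 12 ratios were compared, and the lowest exact p adjusted over them was 0.889.

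Transcriptional regulators of zona genes and the inhibitors of E proteins were listed together. Figla, Nobox, Lhx8 and Sohlh2 were named on no probe set of their own and are not analysed here. Of the 13 genes in the list, 9 were tested, and their means in GDNF were higher for 5 and lower for 4. Means were higher for 4 of the 5 activators tested (Sohlh1, Tcf4, Taf4b and Tcf3, but not Tcf12), beside 48.6% of all genes tested. They were lower for 3 of the 4 Id genes (Id1, Id3 and Id4, but not Id2), beside 5457 of all 10608 genes tested. The log2 fold change was -0.01 for Id1 and 0.09 for Id2. The signs of Sohlh1, Taf4b, Tcf3, Tcf12, Id3 and Id4 each turned in at least 1 fit that left out 1 sample. In the list, 1 gene was higher with no overlap and none was lower with no overlap, beside the 13.8% and 18.1% of all genes tested. The median log2 fold change of the 9 genes was 0.08, or 0.027 without GDNF replicate 2 and 0.0068 without control replicate 2, and the list was not tested. Sohlh1, a germ cell factor that acts upstream of Figla in the mouse, had 151.7 and 228.4 in GDNF, against 143.5 and 168.1 in control samples. GDNF replicate 2 stood above the other samples, and the log2 fold change was 0.26 (SE 0.21), or -0.03 without that sample.

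Tcf3, which encodes the E protein partner of Figla in the mouse, had 46.9 and 35.4 in GDNF and 43.1 and 34.5 in control samples, with overlap (log2 fold change 0.08, SE 0.26). It was -0.12 without GDNF replicate 1 and -0.08 without control replicate 2. Tcf4, another E protein, was the 1 gene higher with no overlap, with 846.8 and 800.4 in GDNF and 720.1 and 722.1 in control samples (log2 fold change 0.19, SE 0.10, limma adjusted p = 0.999). Taf4b, a germ cell subunit of the general transcription machinery, had 0.09 (SE 0.16), and -0.06 without control replicate 1. Of the genes with the lowest values, Id4 (-0.23, SE 0.20) and Id3 (-0.09, SE 0.13) encode inhibitors of E proteins, and the E protein gene Tcf12 had -0.02 (SE 0.10). Id4 was 0.08 without control replicate 1, Id3 was 0.08 without GDNF replicate 2, and Tcf12 was 0.0068 without control replicate 2. A dimmer probe set of Tcf12 went the other way over all samples, with 0.09 (SE 0.37).

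**Figure D4:**
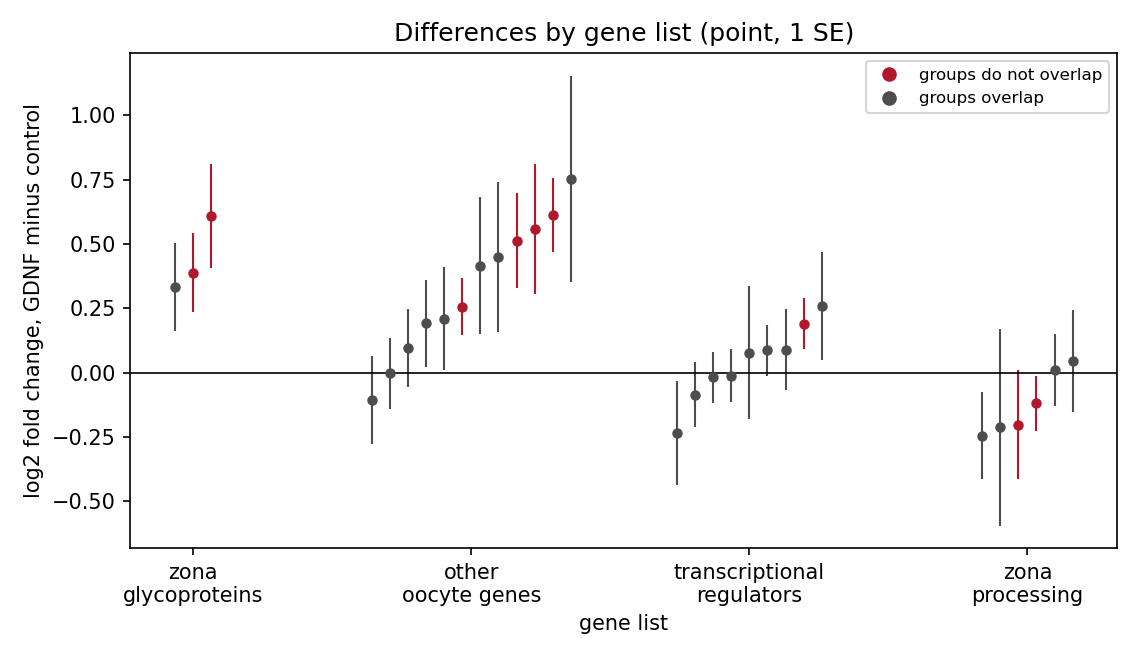
Log2 fold change of log2(signal + 1), GDNF minus control (vertical axis; points with 1 SE of limma's fit), of the tested genes of each list, in red where the groups do not overlap. The 3 zona genes lie between 0.33 and 0.61, the 12 other oocyte genes between -0.11 and 0.75, and the 9 regulators between -0.23 and 0.26.

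Of the 10 genes listed for the processing of zona proteins, 6 were tested, with 2 higher and 4 lower means in GDNF. None was higher with no overlap and 2 were lower with no overlap, beside 13.8% and 18.1% of all genes tested. Furin, a proprotein convertase that cuts at a basic motif of the kind zona precursors carry, had 150.7 and 143.1 in GDNF and 151.8 and 139.7 in control samples, a log2 fold change of 0.01 (SE 0.14). The convertases Pcsk6 (-0.12, SE 0.11) and Pcsk5 (-0.20, SE 0.21) were the pair lower with no overlap. Pcsk5 had 50.5 and 46.2 in GDNF, against 50.7 and 61.2 in control samples, a gap between the groups far smaller than the gap within the controls, and a dimmer probe set of Pcsk5 had 0.06. Pcsk7 had 0.05 (SE 0.20), Pcsk4 -0.21 (SE 0.38) and the galactosyltransferase B4galt1 -0.24 (SE 0.17). A dimmer probe set of B4galt1 had -0.0057. B4galt1 was -0.06 without GDNF replicate 2 and -0.43 without GDNF replicate 1, and Pcsk5 was -0.07 without control replicate 2 and -0.34 without control replicate 1. Furin, Pcsk7 and Pcsk4 each changed sign when 1 sample was left out. Of 11 other genes whose proteins hold a ZP module, 6 had a probe set and 1 was tested. That gene, Eng, which encodes a co-receptor of endothelial cells, differed by 0.03 on the log2 scale (SE 0.22), and by -0.17 without GDNF replicate 2.

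Genes whose pattern over the 4 samples was most like that of each zona gene were ranked by the distance between log2 values centred on each probe set, over 10607 other genes. Nearest to Zp3 were Sox15 (distance 0.02), Rnf126 (0.06), Lin52 (0.06), Th (0.07) and Urad (0.07), and Zp2 came at rank 6 with 0.08. Sox15 had 335.4 and 430.8 in GDNF, against 263.8 and 314.3 in control samples. Nearest to Zp2 were Kctd10 (0.04), Igf2bp2 (0.05), Hsf2bp (0.05), Ubox5 (0.06) and Hemgn (0.06), and Zp3 came at rank 23. Nearest to Zp1 were Mfsd13a (0.10), Ddx55 (0.12), Gdf9 (0.13), Ldhc (0.14), a lactate dehydrogenase of germ cells, and Ccdc61 (0.17). Zp3 came at rank 115 and Zp2 at rank 196 for Zp1. With 4 samples these ranks are a description, and the 4 arrays are shared by all genes.

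Markers of the other cell types of the ovary were measured beside the zona genes. Summed signals over tested markers were 4816 and 4300 in GDNF and 4464 and 3873 in control replicates 1 and 2 for 9 granulosa genes, 10157 and 10162 in GDNF and 10184 and 9862 in control samples for 9 theca and stroma genes, and 1660 and 1068 in GDNF and 1494 and 1210 in control samples for 8 leukocyte genes. For 8 surface epithelium genes they were 5841 and 5307 in GDNF and 6935 and 5934 in control samples, and for 4 endothelial genes 1166 and 1092 in GDNF and 1253 and 1267 in control samples. The sums of the last pair of lists were lower in GDNF with no overlap, and the other 3 overlapped. The surface epithelium sum rests mainly on Krt19, with 3365 and 3236 in GDNF and 4091 and 3632 in control samples. With its genes weighted equally as centred log2 values, that list had -0.0019 and -0.24 in GDNF and 0.27 and -0.03 in control samples, and the groups overlapped. The endothelial sum rests mainly on Kdr, the 1 gene of that list with no overlap. Kdr had 818 and 778 in GDNF and 903 and 920 in control samples. Weighted equally, the endothelial genes had 0.02 and -0.12 in GDNF and 0.06 and 0.05 in control samples, without overlap. Of the granulosa genes 7 of 9 had a higher mean in GDNF, as did 6 of 9 theca and stroma genes, 1 of 8 surface epithelium genes, 1 of 8 leukocyte genes and 0 of 4 endothelial genes. The median log2 fold change of the granulosa genes was 0.41, above the 0.34 of the 12 oocyte genes, though the difference between the lists was not tested. It was 0.18 without GDNF replicate 1 and 0.63 without GDNF replicate 2. Of the 9 granulosa genes, 4 were higher and 2 lower with no overlap, beside 13.8% and 18.1% of all genes tested. Among the higher ones were Amh (0.58) and Inha (0.46), hormone genes of granulosa cells. Kitlg (-0.35), the ligand of Kit, was among the lower ones. These 3 were named after their values were seen. In either direction, 4 of the 9 had an unadjusted limma p under 0.05, Kitlg among them. So did 331 of all 10608 genes tested and 2 of the 12 oocyte genes. Medians of the other lists were 0.10 for theca and stroma, -0.23 for surface epithelium, -0.19 for leukocyte and -0.12 for endothelial genes. Over the fits that left out 1 sample they spanned 0.0045 to 0.05, -0.46 to -0.02, -0.37 to 0.0086 and -0.18 to -0.06 in the same order. No tested marker was at 0, while Cyp19a1, Cyp11a1, Flt1 and Vwf were below the filter. Beta-actin control probe sets had a 3′ over 5′ ratio of 2.62 and 3.62 in GDNF and 3.76 and 3.34 in control samples, so GDNF replicate 1 was the lowest. The part of these differences in the zona results was not tested.

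The widest moves of the zona values came from leaving out a sample, as the plot of settings shows. Over the 4 fits with 1 sample left out, the log2 fold change ran from 0.33 to 0.89 for Zp1, from 0.12 to 0.55 for Zp2 and from 0.20 to 0.58 for Zp3. All of these values were above 0. For Zp1 and Zp3 that was fixed in advance, since both GDNF samples were above both controls. For Zp2 only the fits without GDNF replicate 2 (0.12) or control replicate 1 (0.16) could have turned.

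**Figure D5:**
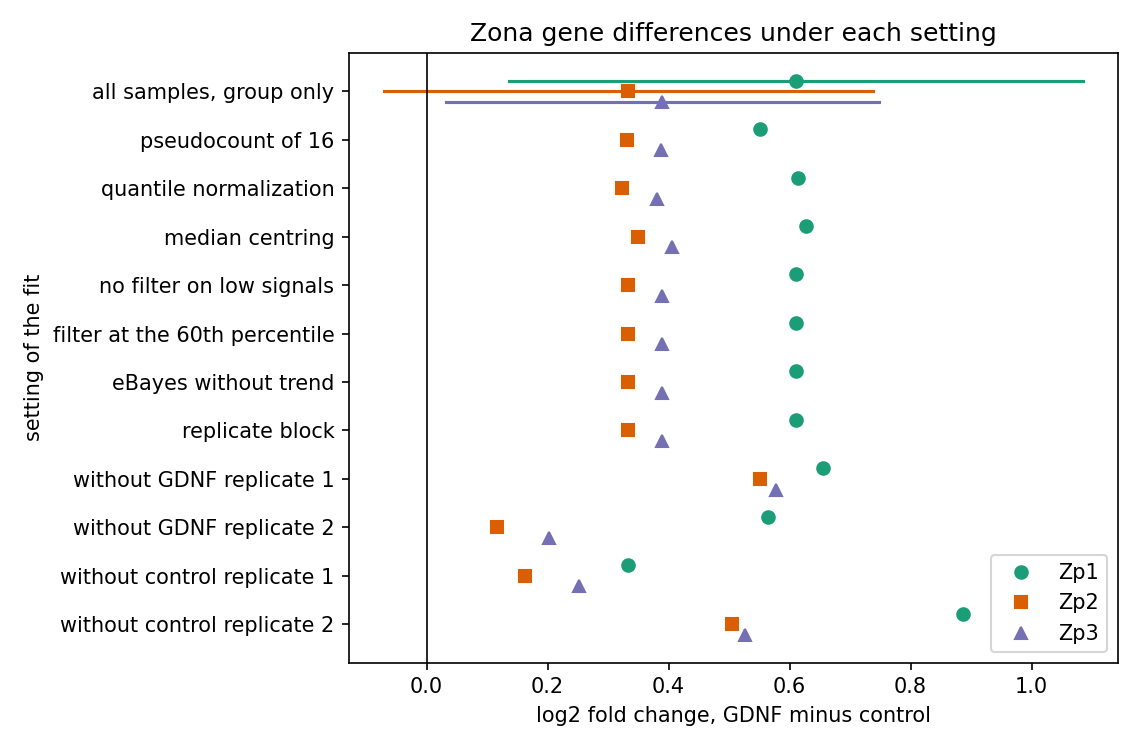
Log2 fold change, GDNF minus control (horizontal axis), of Zp1, Zp2 and Zp3 under each setting of the fit (rows); lines on the first row are 95% intervals. All points lie to the right of 0, and the lowest, 0.12, is Zp2 without GDNF replicate 2. The rows of the filters, of eBayes without trend and of the replicate block repeat the points of the first row by design.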

How the data were processed

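RNA of 4 pooled samples of cultured rat ovaries was hybridised to Affymetrix arrays. The deposited values are linear intensities. The authors made them with MAS5 (version not given), per the submitters' processing notes. MAS5 subtracts a mismatch estimate and scales each array, so dim signals are noisy and a change in total RNA cannot be seen. The trimmed means (2% at each end) were equal on all arrays at 125.03 to 125.04, and median signals were 36.7 to 41.1. Of 31099 probe sets, 57 Affymetrix controls were left out. After conversion to log2(signal + 1), probe sets whose mean lay under the 40th percentile (near a signal of 21.4) were dropped, and 18625 were tested. Genes were named from GEO's platform annotation, and the brightest probe set stands for a gene with several.

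The comparison of GDNF with control used limma 3.58.1 (R 4.3.3; lmFit, then eBayes allowing a trend of variance with mean), two-sided, with Benjamini-Hochberg adjustment over all probe sets tested and a threshold of 0.05. Standard errors and 95% intervals are the moderated ones of that fit. The fit was also run on simulated data with independent noise on each array. Fold changes and calls were recorded there, but standard errors and intervals were not checked. Ratios between genes were compared with exact permutation tests. Alternatives were a pseudocount of 16, quantile normalization, median centring, a filter at the 60th percentile or none, no trend in eBayes, a block for the replicate number, and leaving out each sample. From each list the 3 highest and 3 lowest genes are named, with Figla, Nobox, Lhx8, Sohlh1, Tcf3, Gdf9, Bmp15, Kit, Ddx4, Dazl, Ybx2 and Furin; Ddx4 and Dazl were named on no probe set of their own. The 5 nearest genes in pattern are also named. Members and lists were chosen with earlier results of these data known. Figures were drawn with matplotlib 3.10.9. Promoter sequences are RefSeq's for GRCr8.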

Additional observations from a re-analysis of the deposited data

How the results depend on the processing

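The log2 fold changes of Zp1, Zp2 and Zp3 kept their direction in 33 of 33 alternatives, and none of the 3 genes passed the adjusted threshold in any. The filters, eBayes without trend and the replicate block cannot change a fold change in this balanced design. Those alternatives repeat the main values. The groups of Zp1 and Zp3 do not overlap, so leaving out a sample or raising the pseudocount could not turn their direction either. Only quantile normalization and median centring could have done so for Zp1 and Zp3. For Zp2, the direction could also have turned without GDNF replicate 2 or without control replicate 1. Most of the 33 outcomes were therefore fixed in advance. A pseudocount of 16 gave 0.55 for Zp1. In the fits that left out 1 sample, where the lone sample of a group is assumed to vary like the other group, Zp1 ran from 0.33 to 0.89, Zp2 from 0.12 to 0.55 and Zp3 from 0.20 to 0.58, and 0 probe sets were called in each (145 to 1901 had an unadjusted limma p under 0.05). No label explains the replicate number. Differences between replicates 1 and 2 correlated at r = 0.323 between GDNF and control over the probe sets tested. With the replicate block, 8 probe sets were called and the adjusted p was 0.153 for Zp1, 0.343 for Zp2 and 0.236 for Zp3. Gdf9 passed there (limma adjusted p = 0.0469), in a fit with 1 residual degree of freedom. Relative to the other oocyte genes, Zp2 turned to -0.011 with quantile normalization, and leaving out samples gave -0.16 to 0.16 for Zp2, -0.071 to 0.19 for Zp3 and 0.17 to 0.39 for Zp1. Bmp6 turned to 0.014 with median centring. Other genes that turned when a sample was left out were Sohlh1 (-0.034 to 0.55), Taf4b (-0.064 to 0.24), Tcf12 (-0.042 to 0.0068), Tcf3 (-0.12 to 0.28), Id3 (-0.25 to 0.083), Id4 (-0.55 to 0.083), Rbpms2 (-0.059 to 0.25), Bmp6 (-0.096 to 0.091), Sycp3 (-0.30 to 0.093), Pcsk7 (-0.0014 to 0.093), Pcsk4 (-0.55 to 0.14), Furin (-0.048 to 0.072) and Eng (-0.17 to 0.22). Causes were not tested. Signals near the filter, such as that of Pcsk4, are the least certain.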
